A study of Homo sapiens with 9 samples.

Results

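Transcripts of 50 nuclear genes that encode subunits of the mitochondrial oxidative phosphorylation system were followed in cells labelled HepG2, a human hepatocellular carcinoma line. The 50 genes were chosen by symbol as subunits of the 5 complexes, and all 50 were found by Ensembl identifier among the 61093 genes listed. They comprise 16 subunits of complex I, the 4 of complex II, 8 of complex III, 11 of complex IV and 11 of ATP synthase. The series holds 9 RNA-seq libraries in 3 groups of 3: control cells with no treatment named, cells given SKF-96365, and cells given 2-APB. The series text presents SKF-96365 as an inhibitor and 2-APB as an agonist of TRPV2, a calcium-permeable cation channel, so the comparisons ask how each compound changed transcript levels. The treatment labels gave the groups, although the titles of the 2-APB libraries read ABP and their columns carry the name TRPV2. Dose, exposure time, vehicle, batch and the source of the replicates are not given in the labels, so p-values measure only the spread between these libraries, which may be technical.

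Oxidative phosphorylation couples the transfer of electrons from NADH and succinate to oxygen with the synthesis of ATP. Complexes I, III and IV pump protons across the inner mitochondrial membrane as electrons pass through them, complex II feeds electrons from succinate to the quinone pool without pumping, and ATP synthase lets the protons return through a rotating ring while its catalytic head makes ATP. Most subunits are made from nuclear genes and imported, a smaller core is encoded by mitochondrial DNA, and the transcription factors NRF1 and GABPA are known regulators of many of the nuclear genes.

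The upstream sequences of 4 genes are shown because their log2 values ran closest to those of the other 49 over the 9 libraries. The mean Pearson r to the other members was 0.65 for UQCRFS1 (the iron-sulphur protein of complex III), 0.62 for UQCRH (the hinge protein of complex III), 0.62 for NDUFA2 (a complex I subunit) and 0.62 for ATP5PF (a stalk subunit of ATP synthase). These are correlations over 9 libraries that share their groups and are given as a description. Each sequence holds the 250 bases before the RefSeq start on GRCh38.p14, written 5′ to 3′ on the gene's strand, at chr19:29213152-29213401 (minus strand) for UQCRFS1, chr1:46303448-46303697 (plus) for UQCRH, chr5:140647631-140647880 (minus) for NDUFA2 and chr21:25735055-25735304 (minus, the first of 2 listed starts) for ATP5PF. Capitals mark matches, on either strand, to the NRF1 core motif, CCGGAAG (an ETS motif, as bound by GABPA), AAGATGGC (YY1) and GGGCGG (the SP1 box).
UQCRFS1: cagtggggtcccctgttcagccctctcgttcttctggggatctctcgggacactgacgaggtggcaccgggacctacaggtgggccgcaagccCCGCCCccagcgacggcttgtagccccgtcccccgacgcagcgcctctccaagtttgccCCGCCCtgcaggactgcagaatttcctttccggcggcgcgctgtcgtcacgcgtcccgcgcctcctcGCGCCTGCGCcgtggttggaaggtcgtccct
UQCRH: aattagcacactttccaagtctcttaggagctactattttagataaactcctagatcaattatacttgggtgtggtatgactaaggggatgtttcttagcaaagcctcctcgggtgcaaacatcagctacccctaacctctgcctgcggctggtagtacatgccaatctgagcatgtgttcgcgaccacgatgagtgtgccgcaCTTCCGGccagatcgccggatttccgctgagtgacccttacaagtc
NDUFA2: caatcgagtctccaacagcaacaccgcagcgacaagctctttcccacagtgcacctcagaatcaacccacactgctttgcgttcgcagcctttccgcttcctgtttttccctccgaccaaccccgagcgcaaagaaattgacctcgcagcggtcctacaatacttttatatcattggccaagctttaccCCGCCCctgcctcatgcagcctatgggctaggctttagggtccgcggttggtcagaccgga
ATP5PF: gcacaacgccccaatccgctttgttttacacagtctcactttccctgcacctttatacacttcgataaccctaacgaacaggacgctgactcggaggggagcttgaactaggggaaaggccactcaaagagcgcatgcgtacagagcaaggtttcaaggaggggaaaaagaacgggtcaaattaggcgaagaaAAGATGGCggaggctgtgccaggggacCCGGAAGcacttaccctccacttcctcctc

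UQCRFS1 carried the NRF1 core 22 to 31 bases before the start and 2 SP1 boxes farther out. UQCRH carried the ETS motif 40 to 46 bases before the start, and ATP5PF carried it 24 to 30 bases before the start, with a YY1 match at 50 to 57 bases. NDUFA2 had 1 SP1 box and no match to the other 3 motifs in this window, which says only that those letters are absent from it. Of the 50 genes, 40 were matched by symbol to a RefSeq promoter of 300 bases, which adds 50 bases after the start. The ETS motif was found in 16 of the 40 (40.0%), against 12.2% of 27305 genes with a promoter entry and 21.3% of the 11400 among them that were tested for expression. The NRF1 core was found in 9 (22.5%, against 6.98% and 12.9%) and the YY1 motif in 8 (20.0%, against 3.52% and 6.17%). The SP1 box was found in 28 (70.0%), above the 48.3% of all genes and below the 75.1% of tested genes. At least 1 of the NRF1 core and the ETS motif was present in 24 of the 40 (against 17.6% and 31.1%). By complex, the NRF1 core was found in 3 of 6 complex III genes and in 0 of 9 complex IV genes, of which 5 carried the ETS motif. A match is a description of the sequence and not evidence of binding.

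Whole reads recovered from the deposited values came to between 14786059 and 19026545 per library, with the total of SKF-96365 3 not certain. The libraries did not sort by label. Over all 17492 tested genes, control 3 correlated best with SKF-96365 2 (r = 0.988) and SKF-96365 1 with 2-APB 3 (r = 0.988). Of 15 transcripts that hepatocytes secrete, 1 (SERPINA1) passed the filter on low values, and albumin (ALB) had a mean of 4.24 normalized counts. The 15 together took 0.00128% to 0.00326% of the signal in controls, 0.00202% to 0.0025% with SKF-96365 and 0.00165% to 0.00214% with 2-APB. Of 11 mesenchymal and other epithelial markers, 10 passed, and the 11 together took 0.909% to 1.17% of the signal per library. The epithelial keratin KRT8 was the highest of them, at a mean of 79421. CDH1 had their largest difference from control, a log2 fold change of -0.87 with SKF-96365 (limma adjusted p = 0.789) whose sign changed with the libraries used. The other markers are not described singly here. The labelled line is therefore named here as the labels give it, without its defining secretory transcripts.

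Every one of the 50 genes was expressed in every library. Mean normalized counts over the 9 libraries ran from 59.1 for NDUFV2 to 12073 for ATP5F1B, with a median of 924. The 50 genes took 0.377% to 0.469% of all signal per library, and the 13 subunits encoded by mitochondrial DNA took 5.37% to 6.11%. On a scale of normalized counts per kilobase of transcript, the medians were lowest for complex I and highest for ATP synthase, at 401 for the NADH-oxidizing and quinone arm of complex I, 977 for its membrane arm, 1036 for complex II, 1286 for complex III, 1525 for complex IV and 2195 for ATP synthase. ATP5F1B, the catalytic beta subunit of ATP synthase, was highest per kilobase at 6565, followed by the ring subunit gene ATP5MC2 at 3595 and the complex IV subunit gene COX7C at 2977. NDUFA9 and NDUFV2, both of complex I, were lowest at 34.9 and 63.6. The ranges overlapped widely: 34.9 to 1263 and 184 to 1519 for the arms of complex I, and 295 to 6565 for ATP synthase. Lengths are medians over protein-coding transcripts of GENCODE 29, and the transcripts actually used by these cells were not measured. Shared exon bases or pseudogene rows, given below, make the counts of some low genes uncertain, among them NDUFV2, NDUFS7, ATP5PO and SDHA.

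The 50 genes varied little. The median SD of the log2 values over the 9 libraries was 0.161, against 0.295 over all tested genes. The gap was smaller among highly expressed genes: among genes with a mean of at least 500, the median SD was 0.142 for 39 members and 0.188 for 6356 genes. The highest library was at most 1.5 times the lowest in 34 of the 50, and only NDUFV2 spanned at least 2-fold (2.52). SKF-96365 2 was the lowest library for 23 of the 50 (it was lowest for 13.2% of all tested genes) and SKF-96365 3 for 10 (11.7% of all). Control 1 was the highest library for 18 (13.8% of all) and SKF-96365 1 for 12 (9.31% of all). Control 3, SKF-96365 2 and SKF-96365 3 together held the lowest value for 37 of the 50 genes (37.3% of all). Control 3 itself was lowest for only 4 of the 50 (12.4% of all), fewer than control 2 with 8 (16.7% of all).

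The median deviation of the 50 genes from their own means, on the log2 scale, was 0.15, -0.02 and -0.07 in control 1 to 3. With SKF-96365 it was 0.15, -0.18 and -0.11 in turn, and 0.04, -0.03 and 0.13 in 2-APB 1 to 3. The lowest values were in SKF-96365 2, SKF-96365 3 and control 3, the highest in control 1, SKF-96365 1 and 2-APB 3, and the ranges of all 3 groups overlapped. Genes of DNA replication were lowest in the same 3 libraries, but SKF-96365 1 was not among their highest: the median deviation of 15 such genes was 0.55, 0.37 and -0.61 in controls, 0.06, -0.59 and -0.56 with SKF-96365, and 0.12, 0.12 and 0.53 with 2-APB. Their part in the levels of the 50 genes was not tested. In bulk RNA, fewer cells of one state and less RNA per cell cannot be told apart.

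**Figure D1:**
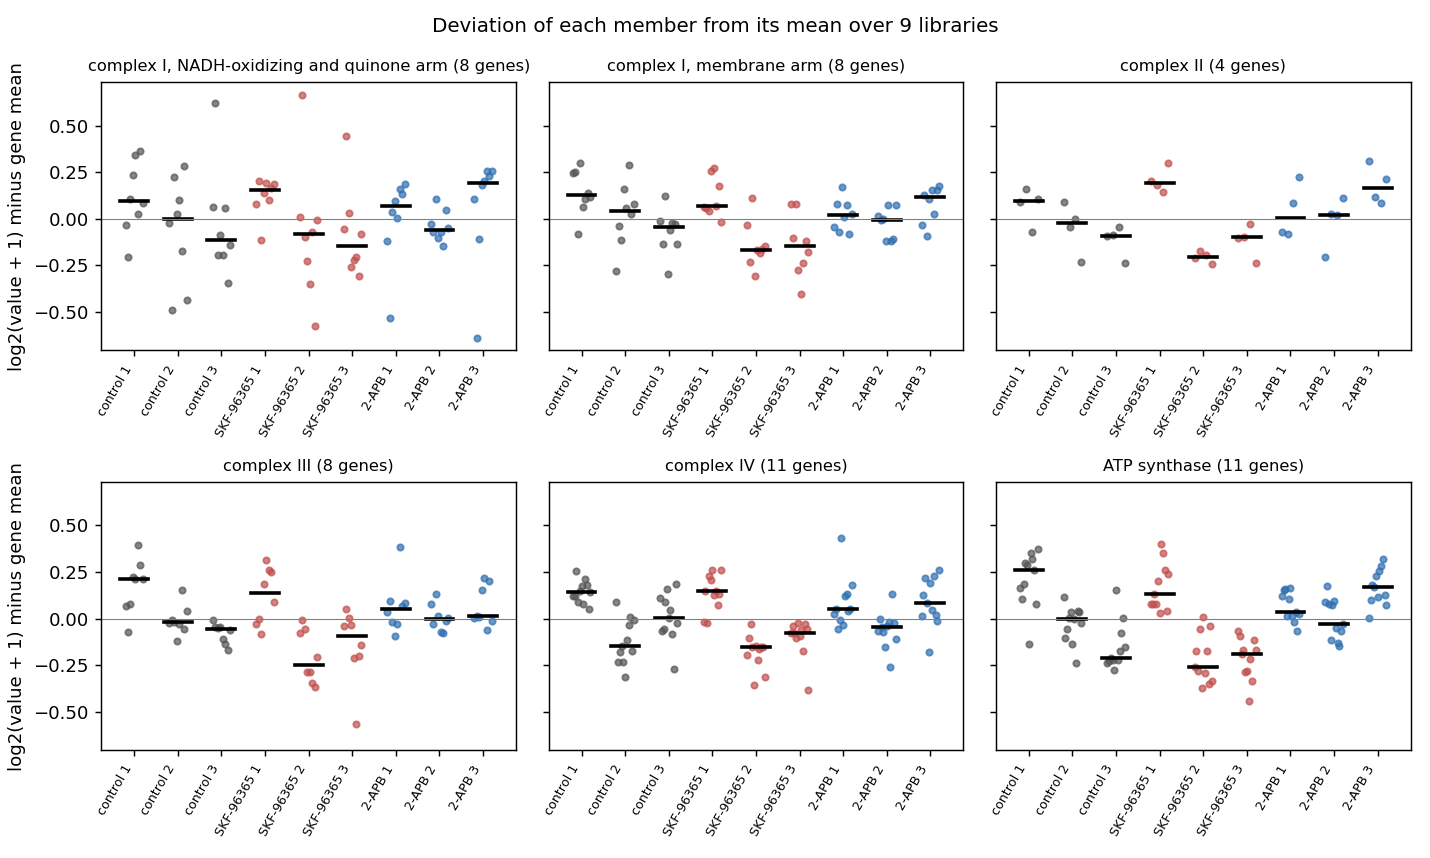
Each point is 1 gene in 1 library, plotted as log2 of the normalized count plus 1 minus that gene's mean over the 9 libraries, in 6 panels by complex, with horizontal bars at the medians (grey control, red SKF-96365, blue 2-APB; points are spread sideways for legibility). In the ATP synthase panel the median is lowest in SKF-96365 2 (-0.26), control 3 (-0.21) and SKF-96365 3 (-0.19) and highest in control 1 (0.26). The complex IV panel differs: the lowest medians are in SKF-96365 2 (-0.154) and control 2 (-0.150), then SKF-96365 3 (-0.076), with control 3 at 0.0024.

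With SKF-96365, most of the 50 genes lay slightly below control, and none passed the test. The fitted log2 fold change was below 0 for 38 of 50 (50.5% of all 17492 tested genes were below 0), with a median of -0.08 against -0.0043 over all genes and a range from -0.35 for UQCR10 to 0.46 for NDUFV2. In limma, 0 of the 50 had a Benjamini-Hochberg adjusted p under 0.05, as had 0 of all tested genes (0.0%), and the smallest adjusted p over all genes was 0.789. At an unadjusted p under 0.05 there were 0 of the 50 and 699 of all genes (4.0%). On recovered reads of 8 libraries, which lack SKF-96365 3, edgeR and DESeq2 each called 0 of the 50 as well. The 95% interval of the difference lay within 1.5-fold in either direction for 42 of the 50 and within 2-fold for 49. SKF-96365 and control values did not overlap for UQCRC1 and NDUFA4, which were lower, and for UQCRC2, which was higher, 3 of 50 against 6.2% of all genes (2.94% lower and 3.26% higher). The median moved to -0.17 without SKF-96365 1, -0.12 without control 3 and -0.0089 without control 1.

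With 2-APB, the 50 genes lay close to control. The fitted log2 fold change was above 0 for 30 of 50 (49.7% of all genes were above 0 and 50.3% below), and 7 and 8 of 50 were below 0 in place of 20 under upper-quartile and quantile scaling. The median was 0.02 against -0.0016 over all genes and a range from -0.39 for NDUFV2 to 0.31 for SDHD. In limma, 0 of the 50 and 0 of all tested genes (0.0%) were called, and the smallest adjusted p over all genes was 0.9995. At an unadjusted p under 0.05 there were 0 of the 50 and 489 of all genes (2.8%), and edgeR and DESeq2 called 0 of the 50. The interval of the difference lay within 1.5-fold for 46 and within 2-fold for 49. The groups did not overlap for NDUFA4, which was lower, and for SDHC and SDHD, which were higher, against 7.57% of all genes (3.97% lower and 3.61% higher). The sign of the median rested on single libraries: it was -0.02 without control 3, -0.01 without control 2 and -0.0042 without 2-APB 3. Both comparisons use the same 3 control libraries.

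Between the compounds, 46 of the 50 genes had a higher fitted value with 2-APB than with SKF-96365 (51.0% of all genes did), with a median log2 fold change of 0.10 against 0.0073 over all genes. In limma, 0 of the 50 and 0 of all tested genes (0.0%) had an adjusted p under 0.05, with a smallest adjusted p of 0.684. At an unadjusted p under 0.05 there was 1 of the 50, NDUFV2, and 1277 of all genes (7.3%). edgeR called 0 of the 50, with 0 at an unadjusted p under 0.05, and DESeq2 called 0 with 1. The interval lay within 1.5-fold for 41 of the 50 and within 2-fold for 49. The groups did not overlap for 6 of the 50, against 17.0% of all genes (8.79% lower and 8.21% higher). NDUFV2 and NDUFA10 were lower with 2-APB, and NDUFB10, UQCRC1, ATP5F1B and ATP5PD were higher. The doses of the compounds are not given, so these values stand side by side and do not rank the compounds. The F test for any difference among the 3 groups called 0 of the 50 and 0 of all genes (0.0%), with 0 and 704 (4.02%) at an unadjusted p under 0.05.

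**Figure D2:**
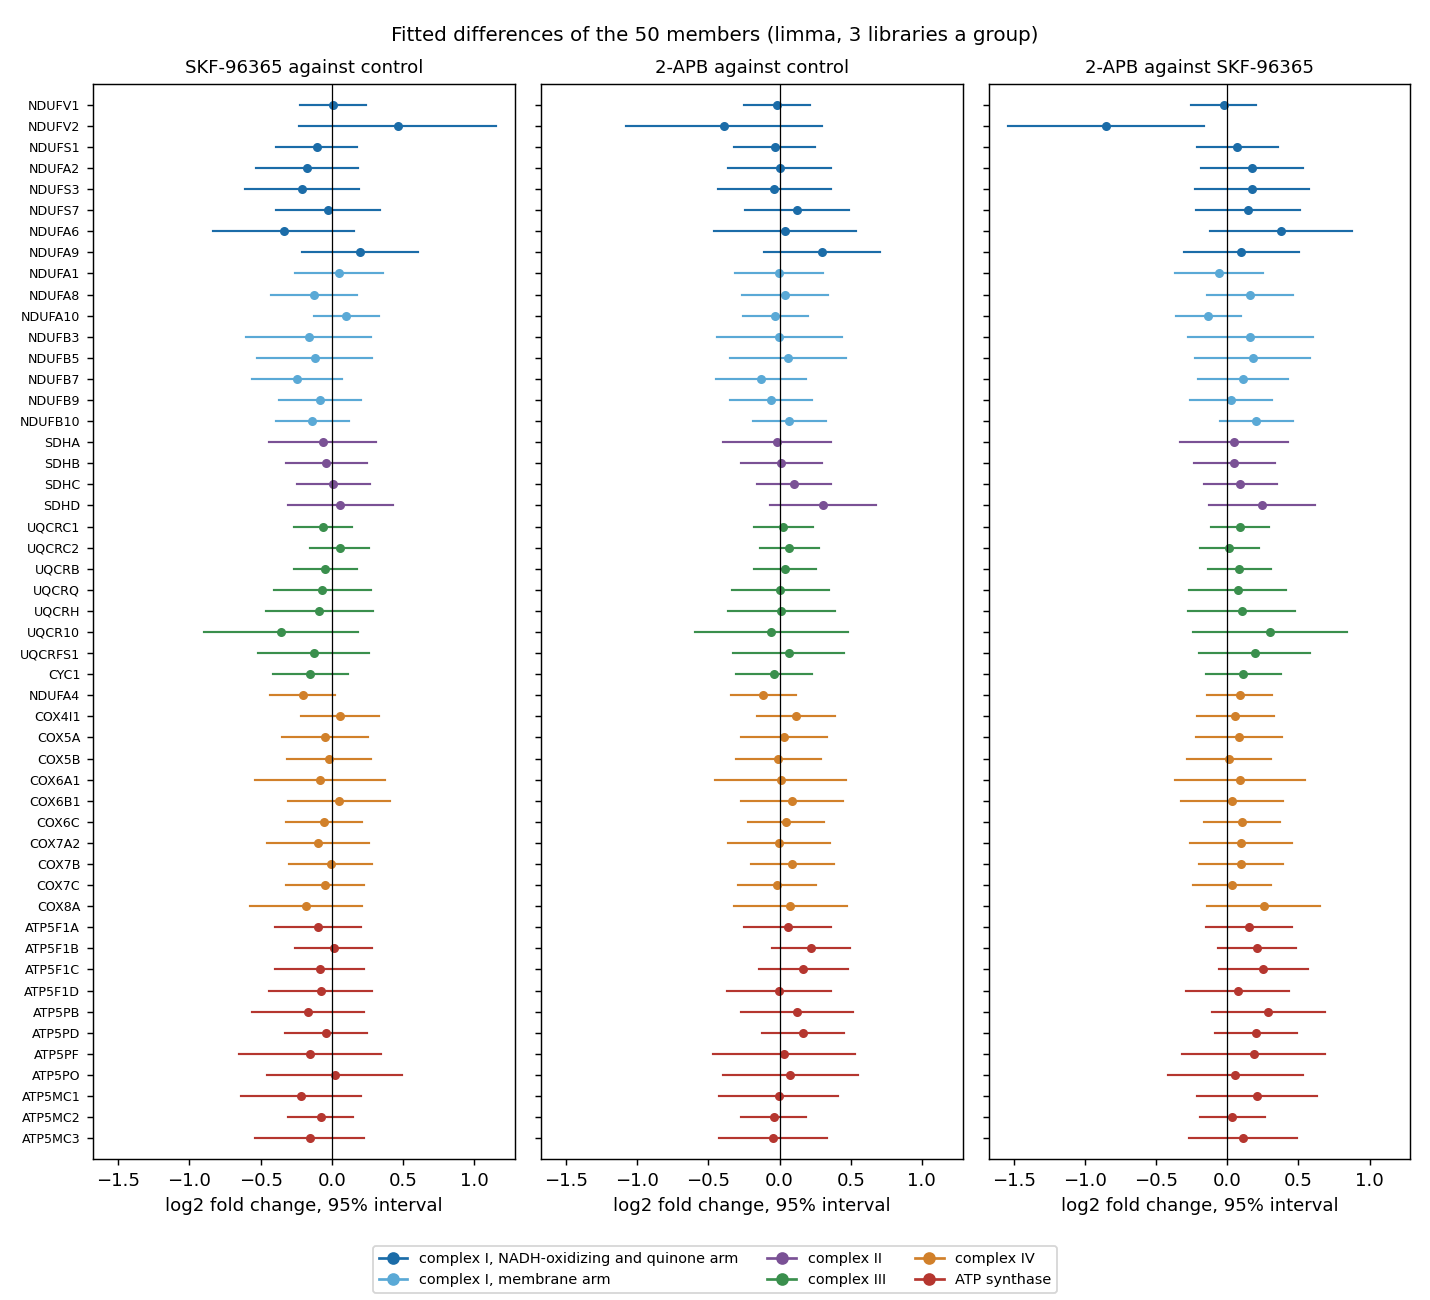
Fitted log2 fold changes of the 50 genes in limma (points) with 95% intervals (lines) for SKF-96365 against control, 2-APB against control and 2-APB against SKF-96365, 3 libraries a group, coloured by complex. Every interval spans 0 except that of NDUFV2 in 2-APB against SKF-96365, which runs from -1.54 to -0.16.

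Complex I takes electrons from NADH in a peripheral arm and passes them to quinone. Among the 8 genes of that arm, the median log2 fold change was -0.07 with SKF-96365 (5 of 8 below 0) and -0.0084 with 2-APB (4 of 8 below 0). NDUFS1, the large iron-sulphur subunit, had the highest mean, at 3244, 3521 and 2627 normalized counts in control 1 to 3, 2785, 2816 and 3080 with SKF-96365 and 3089, 3245 and 2795 with 2-APB. Its groups overlapped, and the range of the controls covered all 6 treated libraries.

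NDUFV2 encodes an iron-sulphur subunit of the module that oxidizes NADH. It stood at 48.4, 39.6 and 86.6 in control 1 to 3, 64.6, 89.4 and 76.4 with SKF-96365 and 38.4, 53.2 and 35.5 with 2-APB. All 3 SKF-96365 libraries lay above all 3 of 2-APB, while control 3 lay near the top of the SKF-96365 range and control 1 and 2 within the 2-APB range. The fitted log2 fold change was 0.46 ± 0.31 (SE) with SKF-96365 and -0.39 ± 0.31 with 2-APB against control, and -0.85 ± 0.31 between the compounds (unadjusted p = 0.0202, limma adjusted p = 0.684). Its counts are uncertain: 41.1% of its exon bases are shared with AP005263.1 on the same strand, and its pseudogene NDUFV2P1 had a mean of 14.5, 24.4% of the mean of NDUFV2. It was also the member least like the others, with a mean r of -0.44.

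NDUFA6, an accessory subunit, stood at 576, 546 and 352 in control 1 to 3, 502, 300 and 362 with SKF-96365 and 491, 462 and 526 with 2-APB. Control 3, SKF-96365 2 and SKF-96365 3 were the 3 low libraries, and the log2 fold change with SKF-96365 was -0.34 ± 0.22 (SE, limma adjusted p = 0.789). NDUFA9, a subunit near the quinone site, stood at 165, 115 and 141 in controls, 177, 155 and 147 with SKF-96365 and 178, 150 and 186 with 2-APB. The groups overlapped, with log2 fold changes of 0.20 ± 0.18 and 0.30 ± 0.18 against control.

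In the membrane arm, which holds the proton channels, the median log2 fold change of 8 genes was -0.12 with SKF-96365 (6 of 8 below 0) and -0.0042 with 2-APB. NDUFA10 was highest, at 2069, 2025 and 2392 in controls, 2261, 2374 and 2316 with SKF-96365 and 2092, 2190 and 2060 with 2-APB. Its SKF-96365 libraries lay above all 3 of 2-APB, and control 3 lay above both. NDUFB7 stood at 382, 433 and 350 in controls, 372, 311 and 301 with SKF-96365 and 373, 326 and 361 with 2-APB, with log2 fold changes of -0.24 ± 0.14 and -0.13 ± 0.14. NDUFB10 stood at 893, 872 and 751 in controls, 813, 745 and 729 with SKF-96365 and 840, 867 and 931 with 2-APB. For NDUFB10 the 2-APB libraries lay above all 3 of SKF-96365, with a log2 difference of 0.21 ± 0.12. The other 5 genes of this arm (NDUFA1, NDUFA8, NDUFB3, NDUFB5 and NDUFB9) overlapped between all groups.

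Complex II, succinate dehydrogenase, is also an enzyme of the citric acid cycle and has no subunit from mitochondrial DNA. Its 4 genes had a median log2 fold change of -0.01 with SKF-96365 and 0.06 with 2-APB. SDHA, the flavoprotein that oxidizes succinate, stood at 422, 422 and 372 in controls, 458, 342 and 369 with SKF-96365 and 377, 344 and 493 with 2-APB. All 3 groups overlapped, with log2 fold changes of -0.06 ± 0.17 and -0.02 ± 0.17. SDHA is uncertain, since rows of its pseudogenes summed to 380% of its own mean, the highest being SDHAP1 at 673 against 400 for SDHA.

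SDHB, the iron-sulphur subunit, stood at 1637, 1423 and 1382 in controls, 1664, 1300 and 1373 with SKF-96365 and 1389, 1492 and 1592 with 2-APB, with overlap throughout. SDHC and SDHD anchor the enzyme in the membrane. SDHC stood at 792, 831 and 806 in controls, 920, 726 and 814 with SKF-96365 and 882, 843 and 883 with 2-APB. SDHD stood at 728, 575 and 573 in controls, 832, 572 and 573 with SKF-96365 and 791, 731 and 784 with 2-APB. For both anchors every 2-APB library lay above every control. The margin was small: for SDHD the means were 769 ± 33.0 with 2-APB and 625 ± 89.0 in controls (SD, n = 3), the log2 fold change was 0.31 ± 0.17, and the interval ran from -0.07 to 0.68.

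Complex III passes electrons from quinol to cytochrome c. Its 8 genes had a median log2 fold change of -0.08 with SKF-96365 (7 of 8 below 0) and 0.02 with 2-APB. UQCRC2, a core protein, was highest, at 2572, 2685 and 2624 in controls, 2694, 2691 and 2806 with SKF-96365 and 2889, 2654 and 2731 with 2-APB. Every SKF-96365 library lay above every control, by a log2 fold change of 0.06 ± 0.09. The other core protein, UQCRC1, stood at 2279, 2144 and 2166 in controls, 2138, 2065 and 2116 with SKF-96365 and 2230, 2300 and 2186 with 2-APB. Its SKF-96365 libraries lay below all others, with a log2 fold change of -0.06 ± 0.09 against control.

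UQCR10, a small accessory subunit, had the largest negative difference of the 50 genes with SKF-96365. It stood at 235, 198 and 162 in controls, 213, 140 and 120 with SKF-96365 and 232, 168 and 171 with 2-APB. SKF-96365 1 lay within the control range and the other two below it, with a log2 fold change of -0.35 ± 0.24 (SE, limma adjusted p = 0.789). UQCRFS1, whose promoter is given above, stood at 1571, 1240 and 1144 in controls, 1532, 997 and 1119 with SKF-96365 and 1347, 1275 and 1481 with 2-APB. Its low libraries were SKF-96365 2, SKF-96365 3 and control 3, and all groups overlapped.

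Complex IV, cytochrome c oxidase, reduces oxygen to water. Its 11 nuclear genes had a median log2 fold change of -0.05 with SKF-96365 (9 of 11 below 0) and 0.03 with 2-APB. COX7C had the highest mean, at 2050, 1751 and 2247 in controls, 2165, 1779 and 1899 with SKF-96365 and 2044, 1947 and 1961 with 2-APB, with overlap throughout. COX4I1, an early-assembling subunit that takes part in regulation by ATP, stood at 2115, 1655 and 1860 in controls, 2158, 1806 and 1891 with SKF-96365 and 2016, 1938 and 2122 with 2-APB. The groups overlapped, with log2 fold changes of 0.06 ± 0.12 and 0.12 ± 0.12. NDUFA4, first described as a complex I subunit and now placed in complex IV, stood at 999, 974 and 990 in controls, 905, 800 and 869 with SKF-96365 and 934, 874 and 927 with 2-APB. All 6 treated libraries lay below all 3 controls, which spanned only 974 to 999. The log2 fold changes of NDUFA4 were -0.20 ± 0.10 with SKF-96365 (limma adjusted p = 0.789) and -0.12 ± 0.10 with 2-APB (limma adjusted p = 0.9995).

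Of 9 alternative isoform genes, 3 passed the filter on low values. COX7A2L, which acts in joining complexes III and IV into supercomplexes, was the highest, at 1710, 1567 and 1685 in controls, 1920, 1592 and 1692 with SKF-96365 and 1610, 1523 and 1796 with 2-APB, with overlap throughout. The lung form COX4I2 had a mean of 0.116 normalized counts and the muscle form COX6A2 was listed at 0 throughout. COX6B2, known as a testis form, stood at 3.16, 4.06 and 41.7 in controls, 12.2, 49.3 and 48.6 with SKF-96365 and 10.96, 15.5 and 8.87 with 2-APB. The high libraries were control 3, SKF-96365 2 and SKF-96365 3, the 3 with the lowest median deviations of the 50 genes. The log2 fold change of COX6B2 with SKF-96365 was 1.73 ± 0.84 (SE, limma adjusted p = 0.789). It ran from 1.13 without control 1 to 2.81 without control 3.

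ATP synthase makes ATP in a catalytic head driven by a membrane ring. Its 11 genes had a median log2 fold change of -0.09 with SKF-96365 (9 of 11 below 0), 0.06 with 2-APB and 0.19 between the compounds, where 11 of 11 were higher with 2-APB. ATP5F1B stood at 12903, 11162 and 10245 in controls, 12684, 10626 and 11247 with SKF-96365 and 13354, 13585 and 12849 with 2-APB. Every 2-APB library lay above every SKF-96365 library, with means of 13263 ± 376 and 11519 ± 1056 (SD, n = 3) and a log2 difference of 0.21 ± 0.12 (SE, limma adjusted p = 0.7). Against control, where control 1 lay within the 2-APB range, it was 0.22 ± 0.12. ATP5PO, a subunit of the stator stalk, stood at 339, 229 and 240 in controls, 347, 241 and 233 with SKF-96365 and 267, 247 and 330 with 2-APB, with a log2 fold change of 0.02 ± 0.21 with SKF-96365. Control 1, SKF-96365 1 and 2-APB 3 were its 3 high libraries, and 70.3% of its exon bases are shared with other genes.

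ATP5MC1, ATP5MC2 and ATP5MC3 encode the same mature ring protein from separate loci. ATP5MC1 stood at 1400, 1200 and 1106 in controls, 1400, 916 and 925 with SKF-96365 and 1195, 1053 and 1455 with 2-APB. ATP5MC2 stood at 3080, 2980 and 2923 in controls, 3001, 2837 and 2690 with SKF-96365 and 2783, 2783 and 3176 with 2-APB. ATP5MC3 stood at 3203, 2436 and 2225 in controls, 2921, 1959 and 2197 with SKF-96365 and 2518, 2419 and 2599 with 2-APB. ATP5MC2 was the steadiest of the 3, with a highest to lowest ratio of 1.18 against 1.59 for ATP5MC1 and 1.63 for ATP5MC3, and all groups overlapped for each. Per kilobase of transcript, their mean levels were 2195, 3595 and 2966. The log2 fold changes with SKF-96365 were -0.22 ± 0.19, -0.08 ± 0.10 and -0.16 ± 0.17.

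The libraries labelled control 3 and SKF-96365 1 each stood with libraries of another group, so the fits were repeated without them, an alternative chosen with the data in view. Control 1 and 2-APB 3 also correlated best with a library of another group (r = 0.986 with 2-APB 3 and 0.988 with SKF-96365 1) and were kept. Over the remaining 7 libraries, SKF-96365 against control gave 10 of the 50 genes with an adjusted p under 0.05 (20.0%), which is below the 27.6% of all tested genes (4823). The 9 lower genes were NDUFS3, NDUFA6, NDUFB3, NDUFB7, UQCR10, ATP5PB, ATP5PF, ATP5MC1 and ATP5MC3 (14.5% of all genes were called lower), and the 1 higher gene was NDUFV2 (13.1% higher). The log2 fold change of NDUFA6 was then -0.76 ± 0.14 (SE, limma adjusted p = 0.0048), that of UQCR10 -0.73 ± 0.20 (adjusted p = 0.0276) and that of NDUFV2 0.90 ± 0.28 (adjusted p = 0.0394). The median over the 50 was -0.22, with 43 below 0 (50% of all genes were), against -0.00058 over all genes. All 11 complex IV genes were then below 0 but 0 of them passed, while 4 of 11 ATP synthase genes did. In the same fit 14 of the 15 DNA replication genes were called lower, with a median of -1.04, and their part in the result was not tested.

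In the same 7 libraries, 2-APB against control gave 0 of the 50 and 0 of all genes (0.0%) in limma, with 1 of the 50 and 2758 of all genes (15.8%) at an unadjusted p under 0.05. The median over the 50 was -0.02. 2-APB against SKF-96365 gave 6 of the 50 (12.0%), close to the 13.1% of all genes (6.61% lower and 6.44% higher). NDUFA6, SDHD, COX8A, ATP5F1C and ATP5PB were higher with 2-APB, with log2 differences of 0.58, 0.42, 0.46, 0.38 and 0.47, and NDUFV2 was lower, by -0.97. The F test gave 4 of the 50 and 3547 of all genes (20.3%). The libraries were left out because they stood with another group, so these p-values are too small. Without control 3 alone or SKF-96365 1 alone, 0 of the 50 were called in any contrast, while 173 of all genes (0.989%) were called in SKF-96365 against control without control 3 and 4 (0.0229%) in 2-APB against SKF-96365. At an unadjusted p under 0.05, those fits of SKF-96365 against control gave 2 and 5 of the 50 in turn, beside 25.5% and 12.8% of all genes.

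**Figure D3:**
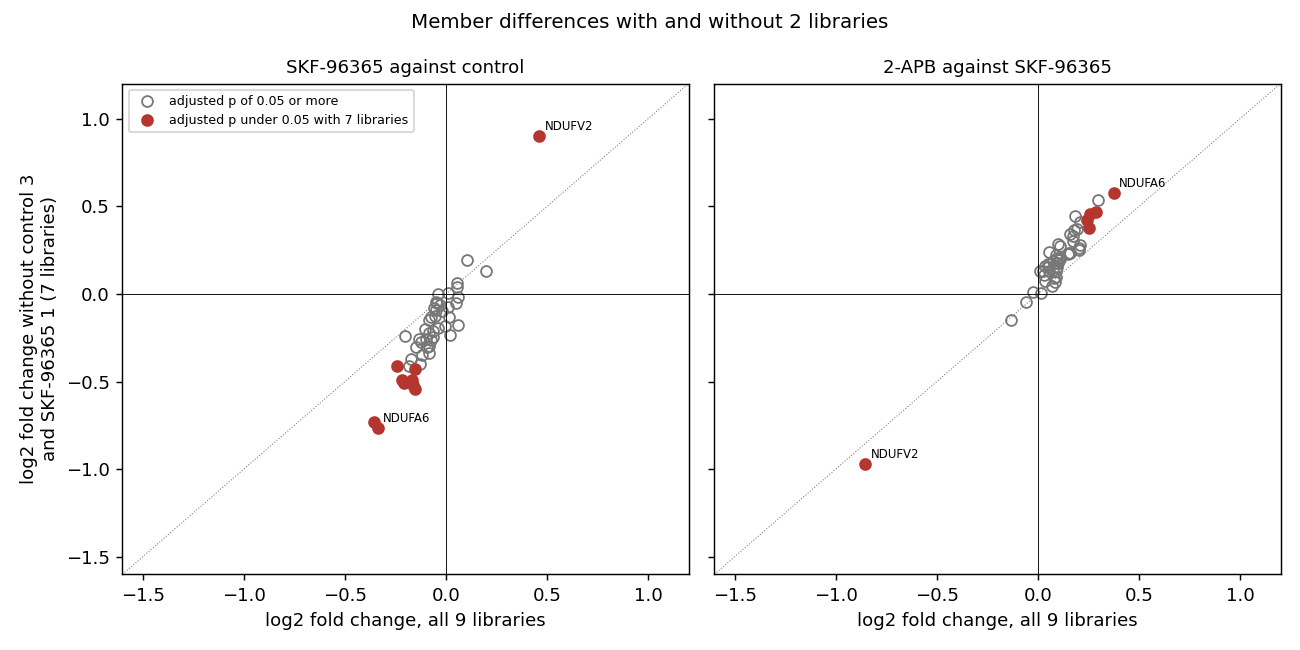
Log2 fold changes of the 50 genes with all 9 libraries (horizontal axis) and without control 3 and SKF-96365 1 (vertical axis), for SKF-96365 against control (left) and 2-APB against SKF-96365 (right); red points passed an adjusted p under 0.05 with 7 libraries, and the dotted line marks equal values. NDUFV2 and NDUFA6 lie farthest out, and 10 genes on the left and 6 on the right are red.

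The rest of the pathway was close to the 50 genes. Of 30 other nuclear subunit genes all were tested and 0 passed in any contrast. Their median log2 fold change was -0.13 with SKF-96365 (28 of 30 below 0) and 0.05 with 2-APB (10 of 30 below 0), with 0 and 3 at an unadjusted p under 0.05 (4.0% and 2.8% of all genes). CYCS, which encodes cytochrome c, was the highest of them at 3545, 3736 and 1678 in controls, 3300, 1590 and 1690 with SKF-96365 and 2087, 2153 and 3219 with 2-APB. Control 3, SKF-96365 2 and SKF-96365 3 were about level with each other and below all other libraries, so both control and SKF-96365 groups were split. ATP5ME, a small ATP synthase subunit, stood at 59.98, 35.5 and 40.7 in controls, 24.5, 36.0 and 26.8 with SKF-96365 and 30.7, 25.8 and 28.6 with 2-APB. Its 2-APB libraries lay below all controls, with a log2 fold change of -0.63 ± 0.28 (SE, limma adjusted p = 0.9995). Of the 30 genes, 4 had all 2-APB libraries below all controls and 0 had them above, against 3.97% and 3.61% of all genes.

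Of 43 assembly factors 42 were tested, with a median of -0.08 with SKF-96365 (29 below 0) and 0.03 with 2-APB, and 0 passed. TTC19, a complex III factor, had the highest mean and was at 1624, 1172 and 1453 in controls, 1585, 1392 and 1560 with SKF-96365 and 1428, 1403 and 1451 with 2-APB. SDHAF4, which helps to mature the succinate dehydrogenase flavoprotein, stood at 37.9, 29.4 and 84.5 in controls, 39.3, 91.5 and 79.4 with SKF-96365 and 89.9, 58.4 and 48.3 with 2-APB, with overlap throughout. Of 21 genes for transcription factors, coactivators and mitochondrial DNA maintenance, 20 were tested and 0 passed, with medians of -0.05 and -0.07. LRPPRC, which stabilizes mitochondrial messenger RNA, was the highest at 8216, 8566 and 6529 in controls, 6605, 7129 and 7696 with SKF-96365 and 7723, 7251 and 7440 with 2-APB. PPARGC1A, the coactivator of mitochondrial biogenesis, was near the floor of detection, from 2.10 in control 1 to 26.1 in control 3.

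The 13 subunits encoded by mitochondrial DNA had medians of -0.11 with SKF-96365 (8 below 0) and 0.08 with 2-APB, and 0 passed. MT-CO1, the catalytic subunit of complex IV, stood at 280050, 272825 and 368190 in controls, 338706, 381516 and 379216 with SKF-96365 and 329732, 327360 and 304897 with 2-APB. It was highest in SKF-96365 2, SKF-96365 3 and control 3, the libraries with the lowest median deviations of the 50 nuclear genes. MT-ND3, a complex I subunit, ran the other way, at 10585, 9818 and 7920 in controls, 8669, 7484 and 7112 with SKF-96365 and 8680, 9536 and 8235 with 2-APB. Its log2 fold change with SKF-96365 was -0.28 ± 0.14, against 0.27 ± 0.19 for MT-CO1 (SE, limma adjusted p = 0.789 for each).

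Pathways that feed the chain gave the same counts of calls. Of 16 pyruvate dehydrogenase and citric acid cycle genes 0 passed, with a median of -0.05 with SKF-96365 (11 below 0) and 0.04 with 2-APB. CS, citrate synthase, stood at 4948, 3973 and 3860 in controls, 4575, 3699 and 3925 with SKF-96365 and 4474, 4432 and 4711 with 2-APB. IDH3A, the catalytic subunit of the NAD-dependent isocitrate dehydrogenase, stood at 891, 760 and 469 in controls, 686, 480 and 520 with SKF-96365 and 671, 619 and 688 with 2-APB, again with control 3 beside SKF-96365 2 and 3. Of 11 coenzyme Q synthesis genes 0 passed, with medians of -0.03 and 0.0096. COQ4 had the highest mean of the 11. COQ8A had their largest difference from control, a log2 fold change of -0.83 with 2-APB (limma adjusted p = 0.9995). Leaving out 1 library, it ran from -1.25 to -0.46. With 2-APB, 3 of the 11 had all libraries above all controls and 0 had them below, against 3.61% and 3.97% of all genes. The 7 genes of ADP, ATP and phosphate carriers and outer membrane channels had medians of -0.03 and 0.02, and 0 passed. The phosphate carrier gene SLC25A3 was the highest of the 7, at 8923, 8620 and 6501 in controls, 8248, 6067 and 6281 with SKF-96365 and 8056, 7820 and 8329 with 2-APB. SLC25A5 had the largest difference from control of the 7, a log2 fold change of -0.24 with SKF-96365 (limma adjusted p = 0.789).

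Glycolysis, the other main source of ATP, showed 0 of 16 genes passing, with medians of -0.06 with SKF-96365 (11 below 0) and 0.07 with 2-APB. ENO1 was highest, at 50577, 56366 and 48174 in controls, 52132, 47361 and 49885 with SKF-96365 and 52853, 51898 and 54714 with 2-APB. ALDOC, an aldolase form, stood at 46.3, 61.9 and 30.3 in controls, 33.2, 15.4 and 16.9 with SKF-96365 and 36.2, 37.8 and 47.3 with 2-APB, and its log2 fold change with SKF-96365 was -1.07 ± 0.36 (SE, unadjusted p = 0.0137, limma adjusted p = 0.789). The 15 DNA replication genes had a median of -0.45 with SKF-96365 (15 of 15 below 0) and 0.15 with 2-APB, and 0 passed. The largest difference from control among them was that of CDC6, a log2 fold change of -0.85 with SKF-96365 (limma adjusted p = 0.789). RRM2, a ribonucleotide reductase subunit and the highest of them, stood at 12321, 10359 and 4954 in controls, 10719, 4672 and 5216 with SKF-96365 and 7090, 7562 and 14010 with 2-APB. Its split of control 3, SKF-96365 2 and SKF-96365 3 from the other libraries was the one seen for CYCS and NDUFA6.

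**Figure D4:**
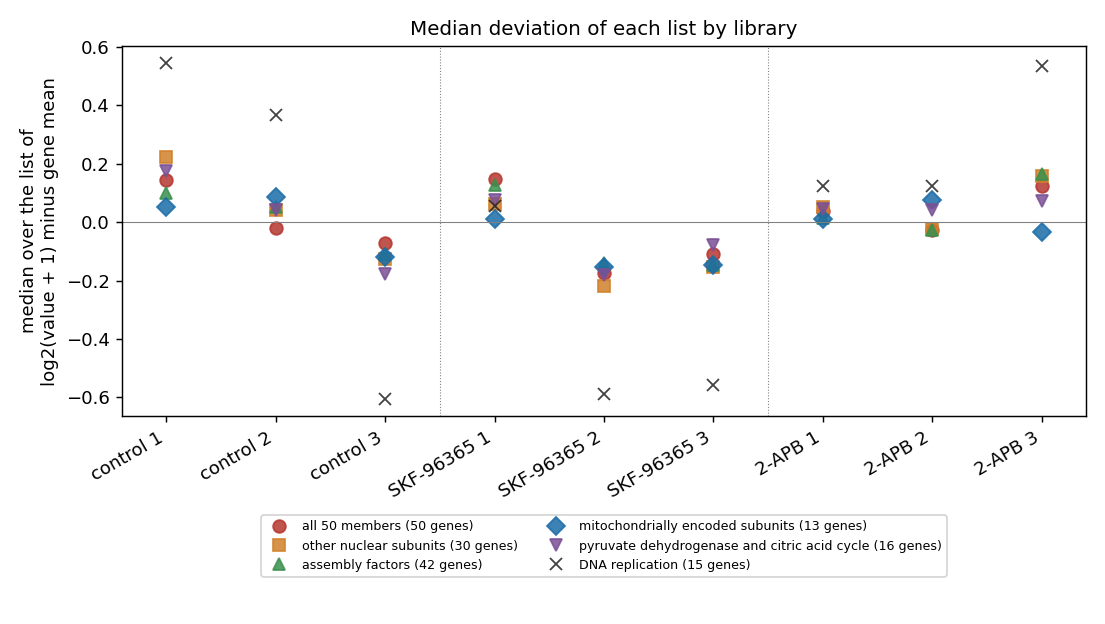
Median deviation of 6 gene lists from their gene means (log2 of the normalized count plus 1), by library, with dotted lines between the groups. Control 3, SKF-96365 2 and SKF-96365 3 are below 0 for each list shown, and the DNA replication genes span the widest range, from -0.61 to 0.55.

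Counting limits bear on some members. Of the 50, 35 have named pseudogene rows (128 rows in all), and 8 of those rows, belonging to 6 members, had a mean of at least 10. Exon bases of 23 members are shared with another gene, over 30% of them for 7 members (NDUFV2, NDUFS7, NDUFA1, COX6A1, COX8A, ATP5PF and ATP5PO). The strand setting of the counting is not given in the sources used here, so reads of genes on opposite strands, such as GABPA and JAM2 across from ATP5PF, cannot be told apart. For NDUFV2, COX6A1 and COX8A all shared bases lie on the same strand, where strand would not separate the genes. For ATP5PO 70.3% of exon bases are shared in all and 11.4% with a gene on the opposite strand.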

How the data were processed

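Per the labels, total RNA went into libraries with a SMARTer mRNA kit. The deposited values are a normalized signal: gene counts that the authors divided by 1 DESeq2 size factor per library, per the submitters' processing notes and the column values. The aligner, read counter, strand setting, genome build and annotation are not given in the sources used here. Members and lists were chosen with earlier results of these data known. Depth was 14786059 to 19026545 reads per library.

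Of 61093 genes (60605 Ensembl identifiers and 488 unnamed loci), 60593 were given symbols, and 17492 reaching 10 in 3 or more of 9 libraries were tested. In R 4.3.3, limma 3.58.1 (intensity trend on) was fitted to log2 of the value plus 1, so fold changes of low genes are understated. All 9 libraries shared 1 spread per gene, with 3 two-sided contrasts, an F test and Benjamini-Hochberg adjustment over all 17492 genes. The fits were tested on simulated data. Within libraries, 100% of values were whole multiples of 1 read, within 0.001 of a read. Reads of 8 libraries were recovered for edgeR 4.0.16 and DESeq2 1.42.0. The step of SKF-96365 3 was too near 1. The other alternatives were pseudocounts, filters, scalings, no trend, only the 2 groups compared, the replicate block and each library left out.

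Named genes are, per complex, the highest mean and the largest positive and negative fold changes against control, members with an unadjusted p under 0.05 (up to 3), and all of SDHA to SDHD and ATP5MC1 to ATP5MC3. Other lists name their highest and most changed genes, some without their values in each library. Further genes named, such as UQCRFS1, UQCRC1 and those singled out because their groups do not overlap, were chosen after their values were seen. Promoters are from RefSeq.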

Additional observations from a re-analysis of the deposited data

How the results depend on the processing

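No called gene among the 50 appeared under any other pseudocount, filter, scaling, variance model, count model or single omission that was run; calls came only with both control 3 and SKF-96365 1 left out. That fit, chosen after seeing the data, gave 4823 genes and 10 members for SKF-96365 against control, 2283 and 6 for 2-APB against SKF-96365, and 3547 and 4 in the F test. Over all genes, DESeq2 called 2, 0 and 1 in the 3 contrasts and 2 in the F test, edgeR called 0 in each, and the fit on only the 2 groups compared called 4 in 2-APB against SKF-96365. Leaving out 1 library gave 0 to 173 genes (173 without control 3) for SKF-96365 against control, 0 to 4 for 2-APB against SKF-96365 and 0 to 5 in the F test. With a replicate block, 0 genes were called and the medians of the 50 stayed at -0.08, 0.02 and 0.10. Deviations of same-numbered libraries correlated from -0.35 to 0.50, so the numbers were not used as pairs.

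The medians of the 50 were -0.05 and -0.05 with SKF-96365 and 0.06 and 0.06 with 2-APB under upper-quartile and quantile scaling, and -0.03 and 0.02 in edgeR, which had 2 SKF-96365 libraries. Some single genes changed sign, most with log2 fold changes near 0, except PPARGC1A (0.56 with 2-APB in all 9 libraries) and CDH1 (-0.87 with SKF-96365). Those for 2-APB were SDHA (0.023 with upper-quartile scaling, 0.0019 in edgeR and 0.0020 in DESeq2), ATP5MC3 (0.024 with quantile scaling) and PPARGC1A (-0.016 in edgeR and -0.013 in DESeq2). Without both libraries, SKF-96365 gave ATP5PO -0.23, CDH1 0.13, COX4I1 -0.018 and SDHD -0.18, and 2-APB gave NDUFB10 -0.0075. Leaving out 1 library, the ranges that crossed 0 for SKF-96365 were SDHA -0.19 to 0.023, SDHD -0.12 to 0.18, COX4I1 -0.027 to 0.15 and ATP5PO -0.16 to 0.20. For 2-APB they were SDHA -0.17 to 0.092, ATP5MC3 -0.15 to 0.11, NDUFB10 -0.0075 to 0.12, UQCR10 -0.21 to 0.074 and PPARGC1A -0.080 to 1.48. The cause was not tested. What could be detected differed by gene: over the 3 contrasts, the 95% interval lay within 1.5-fold for 41 to 46 of the 50 and within 2-fold for 49.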
